A study of Homo sapiens with 8 samples.

Results

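The libraries described here are those of vehicle-treated MDA-MB-231 cells, irradiated with UV-A or kept dark, in the second of 2 culture rounds. They were chosen by their labels (vehicle control, with or without UV, round 2), which gave 2 of the 8 libraries of the series, 1 on each side. MDA-MB-231 is an established human breast cancer line of mesenchymal type that lacks oestrogen and progesterone receptors. UV-A vehicle cells of round 2 were at passage 32 to 34, held in 1% DMSO for 24 h and irradiated for 30 min under 8 bulbs of type LZC-UVA (325 to 375 nm); dark vehicle cells of round 2 had the same passage and DMSO and stayed in a plate wrapped in foil. Beside them stand UV-A and dark cells given 10 µM 1-S in round 2 (passage 32 to 34), and UV-A and dark vehicle cells of round 1 (passage 8), so passage differs wholly between the rounds. The labels put the irradiated and the dark wells in separate plates, so light and plate cannot be told apart, and they give no interval between the end of irradiation and lysis.

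UV-A is the long-wave part of ultraviolet light. It is absorbed less by DNA itself than by other cellular chromophores, which pass the energy on as reactive oxygen species. In skin cells it is known for raising HMOX1, which encodes a haem-degrading enzyme, and MMP1, which encodes interstitial collagenase, and for the quick transcription of immediate early genes such as FOS.

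The UV-A library held 21753809 counted reads and the dark library 22564754, so that 3 reads corresponded to 0.138 CPM (counts scaled to library size) in the UV-A library and 0.133 CPM in the dark library. Mitochondrially encoded genes took 3.12% of the reads in the UV-A library and 3.02% in the dark library. Markers of the mesenchymal line were abundant, with vimentin (VIM) at 226 FPKM under UV-A and 221 FPKM in the dark. FPKM is a count scaled to gene length and library size. The 10 mesenchymal markers summed to 1044 FPKM under UV-A and 975 FPKM in the dark, with TWIST1 at 1 read under UV-A and 0 reads in the dark. The 10 luminal and epithelial markers summed to 128 FPKM under UV-A and 147 FPKM in the dark, nearly all of it KRT19, and the defining receptor genes ESR1 and PGR had 2 and 10 reads under UV-A and 1 and 13 reads in the dark. Lists of leukocyte, endothelial and fibroblast markers summed to between 0.897 and 2.74 FPKM under UV-A and between 1.60 and 2.72 FPKM in the dark, with CD3E, CDH5 and DCN at 0 reads in both libraries. A melanocyte list summed to 6.10 FPKM under UV-A and 6.39 FPKM in the dark, nearly all of it MITF, with TYR at 0 reads in both. The part of these markers in the results was not tested.

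Few genes differed between the UV-A and dark libraries of round 2 vehicle cells at the size asked for. Of 11571 genes with a mean of at least 1 FPKM, 54 were higher under UV-A (0.467%) and 69 were lower (0.596%). A gene was counted as higher or lower when FPKM + 1 differed at least 1.5-fold and the exact 95% interval of the CPM ratio, which covers counting error only, left out 1. With 1 library a side there is no test, and the interval says nothing of how replicate cultures would vary. Small shifts were far more common, since the counting interval lay above 1 for 1966 genes (17%) and below 1 for 2378 genes (20.6%). These intervals narrow as reads increase, and the part of expression level in the list counts below was not tested. The median difference of log2(FPKM + 1), UV-A minus dark, was -0.01 over all genes considered, and the SD of these differences was 0.226, against 0.258 in the 1-S pair and 0.282 in the round 1 vehicle pair. The same rule marked 62 genes as higher (0.512%) and 144 as lower (1.19%) of 12099 in the 1-S pair. In round 1 vehicle cells it marked 202 as higher (1.65%) and 235 as lower (1.92%) of 12225. Round 1 FPKM rest on other gene lengths than round 2 FPKM, so FPKM levels are not comparable between the rounds. The level filter and the 1.5-fold rule on FPKM + 1 are affected by this as well.

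**Figure D1:**
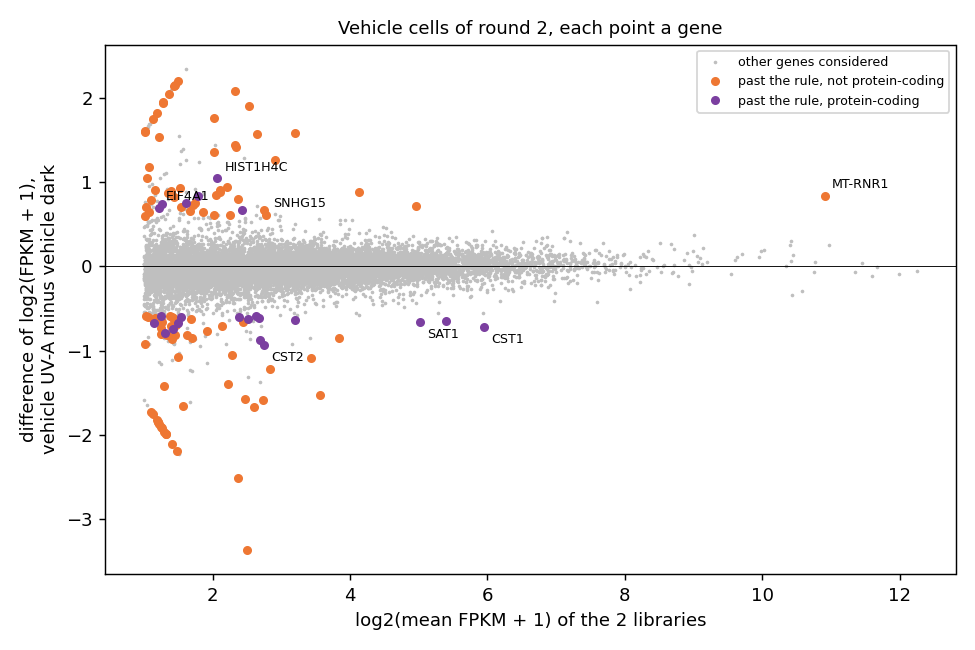
Each point is 1 of the 11571 genes considered in vehicle cells of round 2, with its level on the horizontal axis (log2 of the mean FPKM of both libraries, plus 1) and the UV-A minus dark difference of log2(FPKM + 1) on the vertical axis. Most genes past the 1.5-fold rule lie at the low end of the level axis, and few are protein-coding.

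Most of the genes past the rule were short or scarce. Of these 123 genes (1.06%), 43 were shorter than 200 bases, 73 had fewer than 50 reads in both libraries together and 24 had 0 reads in a library. Small RNA types made up 40 of them (21 higher and 19 lower of 198 considered), although the libraries were made from polyadenylated RNA. The 15 lowest genes, among them MIR4479, MIR3186 and SNORA60, had 0 or 1 reads under UV-A and 6 to 15 reads in the dark. The 15 highest, among them SNORD19, SNORD15B and RNU6-8, had 6 to 24 reads under UV-A and 0 to 7 reads in the dark. Of 10400 protein-coding genes, 6 were higher (0.0577%) and 16 were lower (0.154%). Those named below were chosen after their values were seen.

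Secreted cystatins stood among the protein-coding genes with the largest differences. CST1, CST2 and CST4 encode the salivary cystatins SN, SA and S, secreted inhibitors of cysteine proteases, and lie together on chromosome 20 (GRCh38: CST4 at 23685640 to 23689040, CST1 at 23747553 to 23751268 and CST2 at 23823769 to 23826731, all on the minus strand). CST1 stood at 45.8 FPKM (868 reads) under UV-A and 76.0 FPKM (1496 reads) in the dark, a CPM ratio of 0.602 (95% interval 0.553 to 0.655). CST2 had 3.63 FPKM (59 reads) under UV-A and 7.82 FPKM (132 reads) in the dark, a ratio of 0.464 (0.335 to 0.635). CST4 had 48.5 FPKM under UV-A and 71.6 FPKM in the dark, a ratio of 0.678 (0.619 to 0.742), which was short of the 1.5-fold rule on FPKM + 1. CST3, the cystatin C gene expressed in most cells, differed less, with 103 FPKM under UV-A and 115 FPKM in the dark. CST1 shares 23.3% of its annotated 50-base stretches with CST4 and 4.62% with CST2, so some reads could be assigned to the wrong member or dropped, and their levels are uncertain to that extent.

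The same cystatins were lower under UV-A in round 1 vehicle cells, while in cells given 1-S CST1 and CST4 were not lower, and the counting interval of CST2 took in 1. In round 1, CST1 had 152 FPKM under UV-A and 246 FPKM in the dark, CST2 had 7.02 FPKM under UV-A and 15.4 FPKM in the dark, and CST4 had 118 FPKM under UV-A and 180 FPKM in the dark. In the 1-S pair CST1 had 22.8 FPKM under UV-A and 21.2 FPKM in the dark, and CST4 had 23.2 FPKM under UV-A and 21.4 FPKM in the dark. CST2 in that pair had 2.52 FPKM (36 reads) under UV-A and 2.82 FPKM (46 reads) in the dark, a ratio of 0.896 (0.563 to 1.42). Both 1-S libraries held less CST1 and CST4 than either vehicle library of that round. KRT81, a hair keratin gene, had 25.55 FPKM under UV-A and 34.97 FPKM in the dark in round 2, 17.4 FPKM under UV-A and 59.4 FPKM in the dark in round 1, and 29.2 FPKM under UV-A and 25.8 FPKM in the dark in the 1-S pair. KRT81 shares 37.6% of its 50-base stretches with KRT86, which had 26 reads under UV-A and 33 in the dark, so its count is also uncertain. Of 12 keratin and cystatin genes considered, 2 were lower by the rule, against 0.596% of all genes, and 9 had a counting interval below 1, against 20.6% of all genes. The exception above 1 was CSTB, an intracellular cystatin, with 37.8 FPKM under UV-A and 33.1 FPKM in the dark.

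**Figure D2:**
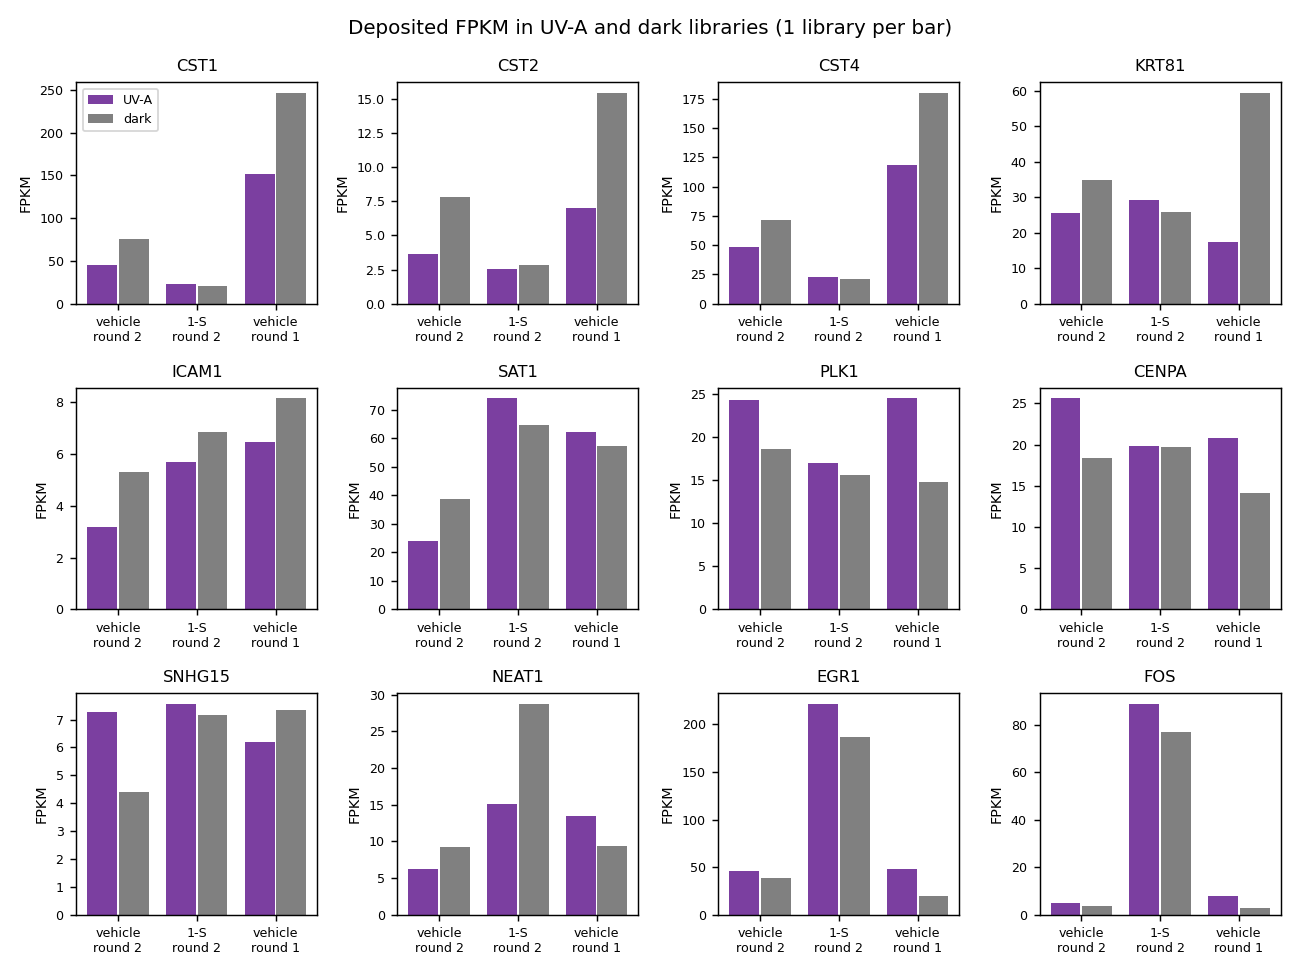
Bars give deposited FPKM, 1 library each, for 12 genes in UV-A (purple) and dark (grey) cells of the round 2 vehicle, 1-S and round 1 vehicle pairs. CST1, CST2, CST4 and KRT81 are lower under UV-A in both vehicle pairs, while SAT1, SNHG15 and NEAT1 differ in direction between the pairs. FPKM levels are not comparable between the rounds, which rest on different gene lengths.

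The other protein-coding genes past the rule were mostly lower and of mixed function. ITGA10, an integrin subunit that binds collagen, had 3.56 FPKM (489 reads) under UV-A and 7.38 FPKM (1053 reads) in the dark, a ratio of 0.482 (0.432 to 0.537). SAT1, the rate-limiting enzyme of polyamine breakdown, had 24.1 FPKM under UV-A and 38.6 FPKM in the dark, a ratio of 0.623 (0.582 to 0.668). PTGES, which makes prostaglandin E2, had 31.9 FPKM under UV-A and 50.7 FPKM in the dark, a ratio of 0.630 (0.588 to 0.675). SPDEF, an ETS transcription factor of secretory epithelia, had 6.22 FPKM under UV-A and 10.2 FPKM in the dark. CLDN7, a tight-junction claudin, had 4.06 FPKM under UV-A and 6.74 FPKM in the dark. AQP3, a water and glycerol channel, had 1.32 FPKM under UV-A and 2.51 FPKM in the dark. The others on the lower side were IQSEC2, WDSUB1, CLIC3, RAB37, TTLL1, HIST1H3A, AP000866.1 and ICAM1, described with its list. None of ITGA10, SAT1, PTGES, SPDEF and CLDN7 passed the rule in either other pair. SPDEF was lower in round 1 all the same, with 286 reads under UV-A and 499 in the dark, a ratio of 0.681 (0.587 to 0.789). Its counting interval took in 1 in the 1-S pair. The round 1 intervals of ITGA10, PTGES and CLDN7 took in 1. SAT1 had 74.0 FPKM under UV-A and 64.7 FPKM in the dark in the 1-S pair. In round 1 SAT1 had 62.4 FPKM (1120 reads) under UV-A and 57.2 FPKM (1219 reads) in the dark. These round 1 values rest on another gene length than those of round 2.

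On the higher side the protein-coding genes included 3 histone genes, KRTAP2-3 and EIF4A1. HIST1H4C had 44 reads under UV-A and 17 in the dark, HIST1H3B had 50 under UV-A and 29 in the dark, and HIST1H2AH had 29 under UV-A and 13 in the dark. Another histone gene past the rule, HIST1H3A, was lower, with 9 reads under UV-A and 22 in the dark, a ratio of 0.424 (0.172 to 0.959). Replication-dependent histone mRNAs mostly end in a stem-loop and lack a poly(A) tail, so a poly(A)-selected library holds few of them, and near-identical copies make their counts uncertain. KRTAP2-3, a keratin-associated protein gene, had 54 reads under UV-A and 25 in the dark, and passed the rule in the same direction in round 1. EIF4A1, the helicase of translation initiation, had 1.89 FPKM under UV-A and 0.775 FPKM in the dark, but its gene overlaps 5 others on its strand, among them the read-through gene SENP3-EIF4A1, and its level is uncertain. Among noncoding genes with many reads, SNHG15 and MT-RNR1 passed the rule. MT-RNR1, the small mitochondrial ribosomal RNA, had 2468 FPKM under UV-A and 1377 FPKM in the dark, a ratio of 1.79 (1.77 to 1.82). MT-RNR2, the large one, had 2971 FPKM under UV-A and 3206 FPKM in the dark. Of 13 mitochondrially encoded mRNAs, 9 were above 0, with a median log2 difference of 0.08, against -0.36 in the 1-S pair.

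Genes of mitosis were shifted upward together by small amounts. All 44 considered members of a list of G2 and M phase genes had a difference above 0, against 46.5% of all genes considered. Of them, 39 had a counting interval above 1 while none had one below 1, against 17% and 20.6% of all genes. The shift was small, with a median log2 difference of 0.15, a range of 0.00 to 0.46 and no member past the 1.5-fold rule. CENPA, the centromeric histone, had 25.6 FPKM under UV-A and 18.4 FPKM in the dark, a ratio of 1.39 (1.27 to 1.53). PLK1, a kinase that drives mitotic entry and exit, had 24.4 FPKM under UV-A and 18.6 FPKM in the dark, a ratio of 1.31 (1.23 to 1.39). AURKB, the kinase of the chromosomal passenger complex, had 47.7 FPKM under UV-A and 37.5 FPKM in the dark. CDC20, which activates the ubiquitin ligase of anaphase, had 123 FPKM under UV-A and 97.0 FPKM in the dark. The smallest differences were those of KIF18A and TTK, whose ratios were 1.00. Above 0 in the other pairs were 33 of 44 members in the 1-S pair (median 0.07, 53.3% of all genes above 0) and 41 of 46 in round 1 (median 0.40, 59.7% of all genes above 0). In bulk RNA, more cells in a phase and more of the RNA per cell cannot be told apart.

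Mitotic genes are known for promoters with CCAAT boxes, bound by NF-Y, and with cell cycle homology regions (CHR), bound by the DREAM and MuvB complexes. The 250 bases upstream of the start site are shown for the 4 members with the largest differences among those matched to a promoter (RefSeq, GRCh38.p14). They were taken from the higher end of the list, so their shared direction follows from that choice. Capitals mark CCAAT and the CHR letters TTTGAA or TTTAAA on either strand (ATTGG and TTCAAA on the opposite one). CENPA lies at chr2:26785806-26786055 on the plus strand, PLK1 at chr16:23678639-23678888 on the plus strand, AURKB at chr17:8210226-8210475 on the minus strand and CDC20 at chr1:43358731-43358980 on the plus strand.
CENPA: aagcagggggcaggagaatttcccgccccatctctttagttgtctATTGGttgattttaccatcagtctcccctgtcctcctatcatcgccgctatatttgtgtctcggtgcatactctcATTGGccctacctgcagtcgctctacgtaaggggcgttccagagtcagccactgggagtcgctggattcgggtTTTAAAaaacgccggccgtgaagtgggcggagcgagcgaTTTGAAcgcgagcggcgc
PLK1: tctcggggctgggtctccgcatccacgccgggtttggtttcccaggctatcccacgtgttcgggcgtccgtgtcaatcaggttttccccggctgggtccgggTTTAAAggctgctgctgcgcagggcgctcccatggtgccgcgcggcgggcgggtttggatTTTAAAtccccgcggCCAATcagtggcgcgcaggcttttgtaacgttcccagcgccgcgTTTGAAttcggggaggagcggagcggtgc
AURKB: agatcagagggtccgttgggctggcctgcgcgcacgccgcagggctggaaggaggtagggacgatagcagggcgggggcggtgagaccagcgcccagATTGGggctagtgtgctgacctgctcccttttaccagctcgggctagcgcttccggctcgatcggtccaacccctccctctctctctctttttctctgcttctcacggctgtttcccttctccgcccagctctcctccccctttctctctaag
CDC20: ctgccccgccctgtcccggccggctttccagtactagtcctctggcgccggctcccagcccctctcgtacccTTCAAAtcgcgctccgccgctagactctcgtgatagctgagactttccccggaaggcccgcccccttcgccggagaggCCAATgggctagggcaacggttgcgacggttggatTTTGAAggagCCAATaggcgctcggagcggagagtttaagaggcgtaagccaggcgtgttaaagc
Of the 37 members matched to a promoter, 28 held CCAAT (75.7%), against 33.0% of 27305 RefSeq promoters of the same length. CHR letters were in 26 of the 37 (70.3%), against 22.1% of all promoters. These counts describe letters in a window and not bound sites; the AURKB window held 1 CCAAT and no CHR match.

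Genes of S phase and of ribosome production were shifted upward as well in this pair. DNA replication genes had 31 of 36 members above 0 (median log2 difference 0.10), 20 with a counting interval above 1 and none with one below 1. The shares over all genes considered were 46.5%, 17% and 20.6%. RRM2, a subunit of ribonucleotide reductase, had 34.0 FPKM under UV-A and 27.7 FPKM in the dark, and CDC45, part of the replicative helicase, had 20.8 FPKM under UV-A and 16.9 FPKM in the dark. In round 1 none of 37 replication genes was above 0 (median -0.51). Ribosome biogenesis genes had 20 of 22 members above 0 (median 0.19), led by NOP16 with 9.43 FPKM under UV-A and 6.64 FPKM in the dark, and RRP9 with 25.1 FPKM under UV-A and 19.3 FPKM in the dark, both factors of nucleolar rRNA assembly. In round 1 their median was -0.17, with 4 of 23 above 0. Cytosolic ribosomal protein genes had 67 of 78 members above 0 with a median of 0.05. In round 1, 1 of 78 was above 0 with a median of -0.41, against 59.7% of all genes above 0. The round 1 median was -0.066 over genes of 28 to 2475 bases and 0.129 over those of 7895 to 43102 bases (round 2: 0.009 and -0.029). By round 2 level, it was 0.087 at 1.00 to 2.55 FPKM and -0.040 above 21.3 FPKM (round 2: -0.056 and 0.022). The part of gene length and level in the contrast between rounds was not tested. Histone genes had 13 of 14 members above 0 (median 0.24), among them H2AFX, the variant phosphorylated at DNA breaks, with 162 FPKM under UV-A and 121 FPKM in the dark. That list leaves out HIST1H3A, which was lower by the rule, and HIST1H3B and HIST1H2AH, which were higher. The nuclear long noncoding list was mixed, with 10 of 15 members above 0 (median 0.10), 6 counting intervals above 1 and 4 below 1. On the higher side were host genes of small nucleolar RNAs, where SNHG15 had 7.29 FPKM under UV-A and 4.40 FPKM in the dark (ratio 1.66, 1.45 to 1.89), SNHG1 had 18.9 FPKM under UV-A and 14.2 FPKM in the dark, and SNHG12 had 4.86 FPKM under UV-A and 3.60 FPKM in the dark. On the lower side, NEAT1 had a ratio of 0.675 (0.645 to 0.706) and MALAT1 a ratio of 0.902 (0.877 to 0.928).

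**Figure D3:**
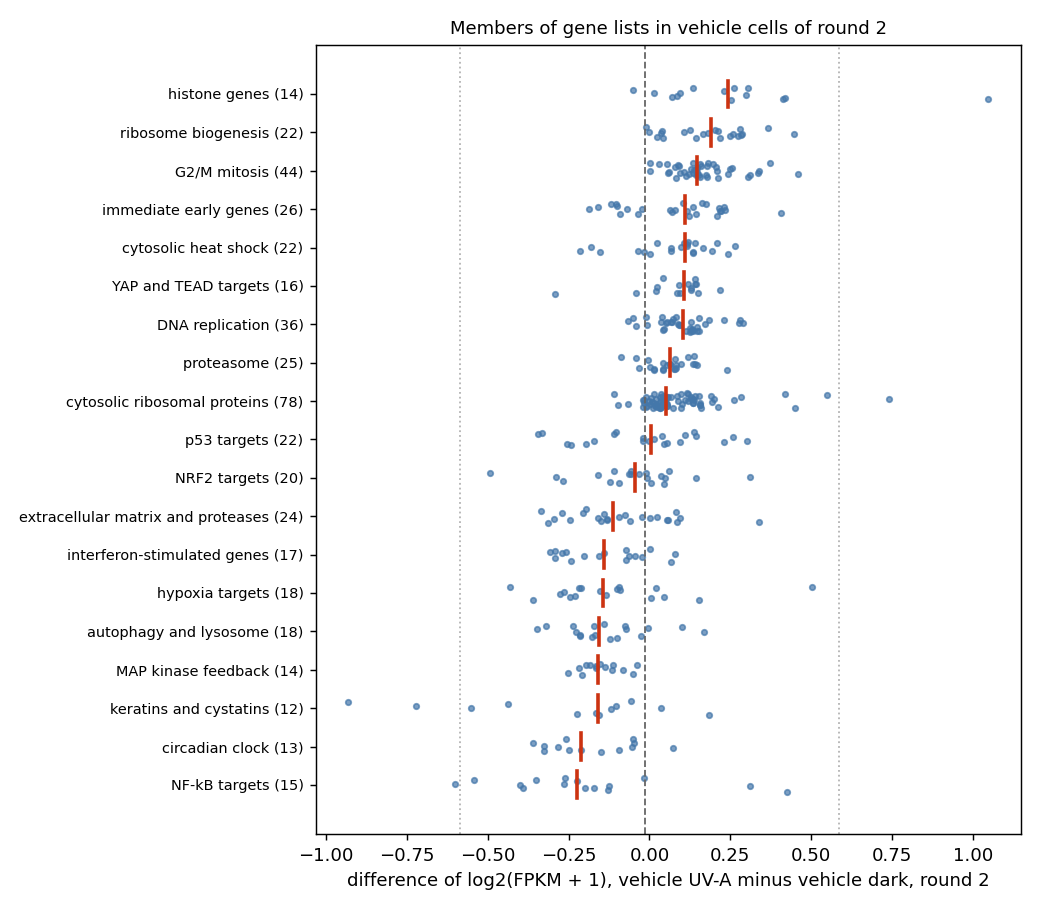
Each point is a gene of the named list (number of members considered in brackets), placed by its UV-A minus dark difference of log2(FPKM + 1) in vehicle cells of round 2; red bars are list medians, the dashed line is the median of all genes and the dotted lines mark 1.5-fold. All 44 mitotic genes lie above 0 and all 14 genes of MAP kinase feedback below 0, within the dotted lines.

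Feedback genes of the MAP kinase pathway were shifted downward together by small amounts. Of 14 members considered none was above 0, against 46.5% of all genes. A counting interval below 1 was found for 12, against 20.6% of all genes. The median log2 difference was -0.16, with no member past the 1.5-fold rule. Many of these genes are transcribed when ERK is active, and several damp MAP kinase pathways. The DUSP genes encode phosphatases of the kinases, and the SPRY and SPRED genes encode inhibitors of RAS and RAF signalling. The list also holds other genes, such as ETV4, ETV5 and PHLDA1. DUSP10 had 4.26 FPKM under UV-A and 5.26 FPKM in the dark (ratio 0.809, 0.688 to 0.952). DUSP6 had 101 FPKM under UV-A and 117 FPKM in the dark (ratio 0.859, 0.837 to 0.882). SPRED2 had 24.5 FPKM under UV-A and 28.5 FPKM in the dark, and PHLDA1 had 67.1 FPKM under UV-A and 77.0 FPKM in the dark. In the 1-S pair 9 of 15 members were above 0 (median 0.09), and in round 1 10 of 14 were (median 0.15, against 0.06 over all genes).

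Immediate early genes, which lie downstream of the same kinases, did not follow the feedback genes. Of 26 considered, 17 were above 0, 14 had a counting interval above 1 and 5 below 1, with a median of 0.11. The shares over all genes considered were 46.5%, 17% and 20.6%. FOS, part of AP-1, had 4.98 FPKM (351 reads) under UV-A and 3.52 FPKM (257 reads) in the dark, a ratio of 1.42 (1.20 to 1.67). EGR1, a zinc-finger factor, had 45.6 FPKM under UV-A and 38.9 FPKM in the dark, and KLF6 had 44.9 FPKM under UV-A and 38.1 FPKM in the dark. SGK1, a serum-induced kinase, had 3.37 FPKM under UV-A and 2.72 FPKM in the dark. The round 1 pair was farther apart for FOS, with 7.97 FPKM under UV-A and 3.01 FPKM in the dark, and in the 1-S pair FOS was high in both, with 88.8 FPKM under UV-A and 77.1 FPKM in the dark. The half-site of the cyclic AMP response element, TGACG on either strand, was in 11 of 18 matched promoters of this list (61.1%), against 21.7% of all promoters. Genes activated by YAP and TEAD had 14 of 16 members above 0 (median 0.11), with CTGF at 604 FPKM under UV-A and 519 FPKM in the dark and WWTR1, which encodes the coactivator TAZ, at 19.1 FPKM under UV-A and 23.7 FPKM in the dark.

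Inflammatory, circadian and hypoxia lists leaned lower. Among 15 NF-kB targets, 2 were above 0, against 46.5% of all genes (median -0.22). A counting interval below 1 was found for 11, against 20.6% of all genes, and 1 was lower by the rule, against 0.596%. That one was ICAM1, the leukocyte adhesion molecule, with 3.163 FPKM (255 reads) under UV-A and 5.309 FPKM (444 reads) in the dark, a ratio of 0.596 (0.509 to 0.696). CSF2, which encodes GM-CSF, had 7.30 FPKM under UV-A and 11.1 FPKM in the dark, and NFKBIA, the inhibitor of NF-kB, had 24.8 FPKM under UV-A and 33.0 FPKM in the dark. IL11 ran the other way, with 75.7 FPKM under UV-A and 56.1 FPKM in the dark. NF-kB targets had 15 of 19 members above 0 in the 1-S pair (median 0.10). ICAM1 had 5.69 FPKM under UV-A and 6.87 FPKM in the dark in the 1-S pair, and 6.47 FPKM under UV-A and 8.15 FPKM in the dark in round 1.

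Of 13 clock genes 1 was above 0 and 8 had a counting interval below 1 (median -0.21). Over all genes considered, 46.5% were above 0 and 20.6% had an interval below 1. The repressor BHLHE40 had 17.9 FPKM under UV-A and 23.2 FPKM in the dark, and the cryptochrome CRY2 had 1.56 FPKM under UV-A and 2.22 FPKM in the dark. Of 18 hypoxia targets 5 were above 0 and 13 had a counting interval below 1 (median -0.14). NDRG1 had 21.22 FPKM under UV-A and 28.96 FPKM in the dark, and VEGFA, the angiogenic growth factor, had 11.7 FPKM under UV-A and 14.4 FPKM in the dark. ADM, which encodes the vasodilator adrenomedullin, was the member above 1, with 16.03 FPKM under UV-A and 11.02 FPKM in the dark. Autophagy and lysosome genes had 2 of 18 members above 0 (median -0.15), led by TFEB, their transcription factor, with 1.26 FPKM under UV-A and 1.88 FPKM in the dark. Interferon-stimulated genes had 3 of 17 above 0 (median -0.14), led by IFIH1, an RNA sensor, with 1.90 FPKM under UV-A and 2.58 FPKM in the dark. The arrestin-like genes of glucose sensing had 2 of 6 above 0, and TXNIP had 70.5 FPKM under UV-A and 85.4 FPKM in the dark. No member of these last 5 lists passed the 1.5-fold rule.

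Extracellular matrix and protease genes had 8 of 24 members above 0 (median -0.11), against 46.5% of all genes. Their counting interval lay below 1 for 13 members, against 20.6% of all genes. COL6A1 had 27.9 FPKM under UV-A and 35.4 FPKM in the dark, and TIMP3, an inhibitor of metalloproteases, had 112 FPKM under UV-A and 139 FPKM in the dark. The matrix list was below its all-gene median in each of the other pairs as well, at -0.28 in the 1-S pair and -0.26 in round 1.

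Of the genes that UV-A is best known for, MMP1, HMOX1 and FOS, none passed the 1.5-fold rule in this pair. HMOX1 and FOS had counting intervals above 1, with a FOS ratio of 1.42 (1.20 to 1.67), while that of MMP1 took in 1. MMP1 had 10.76 FPKM (461 reads) under UV-A and 12.04 FPKM (535 reads) in the dark, a ratio of 0.894 (0.787 to 1.01). In round 1 MMP1 had 141 FPKM under UV-A and 24.7 FPKM in the dark. HMOX1 had 6.61 FPKM (346 reads) under UV-A and 5.14 FPKM (279 reads) in the dark, a ratio of 1.29 (1.10 to 1.51), and in round 1 it had 8.92 FPKM under UV-A and 6.51 FPKM in the dark, a ratio of 1.37. CYP1A1, the main target of the aryl hydrocarbon receptor, had 2.37 FPKM (177 reads) under UV-A and 2.26 FPKM (175 reads) in the dark, a ratio of 1.05 (0.846 to 1.30), while in round 1 it had 8.15 FPKM under UV-A and 1.76 FPKM in the dark. Of the receptor's 5 targets considered 2 were above 0 (median -0.06), against 7 of 7 in round 1 (median 0.99). NRF2 targets, which encode antioxidant and conjugating enzymes, had 7 of 20 members above 0 (median -0.04) and none past the rule, against 20 of 21 above 0 in round 1 (median 0.44). ABCC3, a conjugate exporter of that list, had 1.46 FPKM under UV-A and 2.46 FPKM in the dark.

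Stress and damage lists differed among themselves, and none had a member past the 1.5-fold rule. Heat shock, proteasome and ATF4 genes leaned higher. Their counting interval lay above 1 for 13 of 22, 13 of 25 and 10 of 25 members, against 17% of all genes. It lay below 1 for 1, 1 and 6 members, against 20.6% of all genes. The part of expression level in these shares was not tested. Targets of p53 had 11 of 22 members above 0 (median 0.01), with GDF15 at 4.54 FPKM under UV-A and 6.03 FPKM in the dark and PHLDA3 at 2.48 FPKM under UV-A and 1.82 FPKM in the dark. MDA-MB-231 cells carry mutant p53. DNA repair genes had 16 of 26 above 0 (median 0.01). Genes of the ATF4 branch of the stress response had 16 of 25 above 0 (median 0.05), with DDIT3 at 3.23 FPKM under UV-A and 4.48 FPKM in the dark. Genes of the endoplasmic reticulum response had 6 of 22 above 0 (median -0.04). Cytosolic heat shock genes had 17 of 22 above 0 (median 0.11), with HSPA8, the constitutive chaperone, at 443 FPKM under UV-A and 368 FPKM in the dark, and proteasome genes had 21 of 25 above 0 (median 0.06).

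Few of the genes past the rule in this pair were past it elsewhere. Of the 123, 13 also passed in the 1-S pair, 10 in the same direction, which is 8.13% of the round 2 vehicle calls and 4.85% of the 1-S calls, where 1.7% of all genes passed. In round 1 9 also passed, 6 in the same direction, which is 4.88% of the round 2 calls and 1.37% of the round 1 calls, where 3.57% of all genes passed. CST1, CST2 and KRTAP2-3 were among those shared with round 1, and HCG16, a long noncoding gene, was higher in all 3 pairs. HIST1H4C was on opposite sides, with 4.65 FPKM under UV-A and 1.73 FPKM in the dark in vehicle cells and 1.21 FPKM under UV-A and 2.74 FPKM in the dark in 1-S cells.

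**Figure D4:**
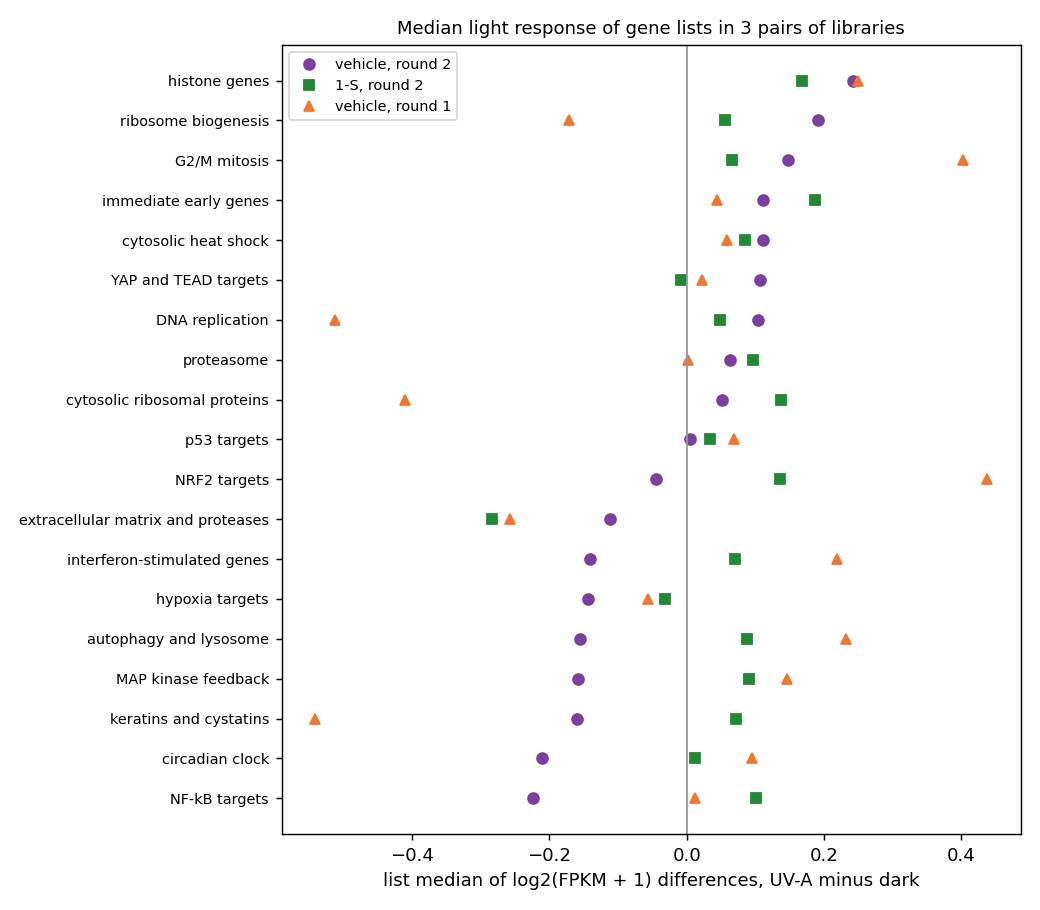
List medians of the UV-A minus dark difference of log2(FPKM + 1) are shown for the vehicle pair of round 2 (circles), the 1-S pair of round 2 (squares) and the vehicle pair of round 1 (triangles), each over the genes considered in that pair. G2 and M phase and histone genes lie above 0 in all 3 pairs and matrix genes below 0, while DNA replication, ribosome biogenesis and ribosomal protein genes lie above 0 in round 2 and below 0 in round 1.

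A test of light across rounds was possible with all 4 vehicle libraries, with round as a block and 1 residual degree of freedom. The spread was taken mostly from all genes together (50.6 prior degrees of freedom). An SE can thus be smaller than a gene's difference between the rounds. By edgeR's quasi-likelihood test with Benjamini-Hochberg adjustment, 5 of 10901 genes passed (0.0459%), 2 of them higher (0.0183%) and 3 lower (0.0275%), and 351 had p under 0.05 before adjustment. KRT81 fell under UV-A (log2 fold change -1.13 ± 0.18 SE, edgeR adjusted p = 0.00069). Its log2 difference was -0.44 in round 2 and -1.72 in round 1. CST1 fell by a smaller amount (log2 fold change -0.74 ± 0.14 SE, edgeR adjusted p = 0.010), lower in both rounds. LTBP1, which binds latent TGF-beta in the matrix, fell (log2 fold change -0.77 ± 0.16 SE, edgeR adjusted p = 0.025), with 6.31 FPKM under UV-A and 8.68 FPKM in the dark in round 2. EGR1 rose (log2 fold change 0.72 ± 0.15 SE, edgeR adjusted p = 0.0495), by less in round 2 than in round 1. The log2 difference of EGR1 was 0.22 in round 2 and 1.22 in round 1. MMP1 passed as well (log2 fold change 1.22 ± 0.25 SE, edgeR adjusted p = 0.025), but this call rests on round 1, since round 2 alone gave -0.15. CST2 and CST4 did not pass, with edgeR adjusted p of 0.081 for CST2 (log2 fold change -1.15) and 0.083 for CST4 (log2 fold change -0.61). Of the listed genes, 2 of 12 keratins and cystatins fell, 1 of 26 immediate early genes rose and 1 of 24 matrix and protease genes (MMP1) rose. None of 44 G2 and M phase genes passed, although 43 had a fold change above 1 (median log2 fold change 0.29), against 5342 of all 10901 genes. Without the block 0 genes passed and with DESeq2 0 did, while limma-trend passed 6 (4 higher and 2 lower) and edgeR with median-of-ratios size factors passed 4 (1 higher and 3 lower, without EGR1), so these calls depend on the model. The authors' deposited table for the round 2 pair gives an adjusted p of 1 for all 58676 genes, with 646 under 0.05 before adjustment.

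A second fit took the vehicle and 1-S pairs of round 2 together and tested their average light response, with treatment as a block. Here edgeR passed 0 of 11881 genes (0%), and 744 had p under 0.05 before adjustment. DESeq2 passed 1, limma-trend passed 6 and edgeR with median-of-ratios size factors passed 81, so this count depends on the scaling and the tool. The smallest adjusted p was that of NEAT1, the RNA scaffold of paraspeckles (log2 fold change -0.74 ± 0.099 SE, edgeR adjusted p = 0.107). NEAT1 had 6.25 FPKM under UV-A and 9.27 FPKM in the dark in vehicle cells and 15.2 FPKM under UV-A and 28.8 FPKM in the dark in 1-S cells, but 13.5 FPKM under UV-A and 9.36 FPKM in the dark in round 1. H6PD, the glucose dehydrogenase of the endoplasmic reticulum, came next (log2 fold change -0.50 ± 0.081 SE, edgeR adjusted p = 0.327), with 16.04 FPKM under UV-A and 22.29 FPKM in the dark in vehicle cells. MT1X, a metallothionein, had 34 reads under UV-A and 6 in the dark in vehicle cells and 157 reads under UV-A and 73 in the dark in 1-S cells (log2 fold change 1.55 ± 0.32 SE, edgeR adjusted p = 0.602).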

How the data were processed

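Poly(A)-selected RNA of MDA-MB-231 cells was sequenced, with strand-specific libraries per the labels' protocols. The deposited tables hold gene counts and FPKM. Per the submitters' processing notes, tools named include TopHat, STAR 2.5, HTSeq 0.6.1, DESeq2 and edgeR 3.16.5, with builds hg19 and hg38, in no stated order; the sources used here do not state the strand setting of counting. Of 58676 gene IDs, 95.3% have the start and end of GENCODE on GRCh38. The authors' deposited table for the round 2 pair also holds log2 fold changes and p-values (p and adjusted p).

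For the round 2 pair, log2(FPKM + 1) differences and CPM ratios with exact 95% Clopper-Pearson intervals were computed over genes with a mean of at least 1 FPKM; a gene counted as higher or lower past 1.5-fold with the interval off 1. Depth was 21753809 reads under UV-A and 22564754 in the dark. edgeR 4.0.16 (R 4.3.3, TMM) was fitted across rounds (round as block) and across treatments of round 2; DESeq2 1.42.0 and limma 3.58.1 were alternatives. Rounds pair the samples because the labels give each round its own passage; deviations from the group means correlated at 0.668. The scripts were tested on simulated data. Members, lists and tests were chosen with earlier results of these data known. The text names the 15 highest and 15 lowest genes past the rule in part, members past the rule or with the largest differences in each list, genes with the smallest edgeR adjusted p, and CYP1A1, MMP1, FOS, KRT81 and HMOX1; other names were chosen after their values were seen, and some genes are not reported here. Nothing says that libraries came from separate cultures beyond the rounds, so p-values do not measure how separate cultures would vary. They rest mostly on a spread pooled over genes, with 1 residual degree of freedom in each fit. The prior degrees of freedom were 50.6 across rounds and 10.5 across treatments.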

Additional observations from a re-analysis of the deposited data

Results flagged for a closer look

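Several lists and genes lay on opposite sides of 0 in the vehicle pairs of round 2 and round 1. With 1 library a side in each round the difference between the rounds was not tested, and passage differs between them too. The part of gene length and expression level in it was not tested either. DNA replication genes had a median log2 difference of 0.104 in round 2, against -0.511 in round 1. Ribosome biogenesis genes had 0.192 in round 2, against -0.171 in round 1. For autophagy and lysosome genes the values were -0.155 in round 2 and 0.232 in round 1, and for interferon-stimulated genes they were -0.141 in round 2 and 0.219 in round 1. Metallothionein genes stood at 0.0936 in round 2, against -0.194 in round 1, over 4 genes. Long noncoding RNAs of the nucleus stood at 0.0999 in round 2, against -0.0433 in round 1. Of single noncoding genes past the rule in both rounds, RP11-295G20.2 had a log2 difference of 0.730 in round 2 and -0.729 in round 1, RP11-712L6.5 had -0.651 in round 2 and 0.768 in round 1, and RP11-888D10.3 had 0.610 in round 2 and -0.638 in round 1.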

How the results depend on the processing

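The number of genes past the rule in the round 2 vehicle pair followed the settings: 98 higher and 163 lower with a pseudocount of 0.1, 113 higher and 154 lower with no filter on level, 8 higher and 14 lower at a mean of at least 5 FPKM, 23 higher and 26 lower at 2-fold, and 101 higher and 118 lower without the counting interval. Chosen after seeing the data, a limit to protein-coding genes gave 6 higher and 16 lower, and a limit to genes of at least 200 bases gave 34 higher. TMM and median-of-ratios scaling moved the median of all genes by 0.025 and 0.016 (log2) and left both counts within 1.5 times. List medians kept their sign under both scalings except for antioxidant enzymes, glycolysis and splicing SR proteins, all within 0.02 of 0. Over both rounds, edgeR passed 23 genes with no count filter and 0 without the replicate block (27 at an unadjusted p under 0.05), and DESeq2 passed 0 (109 at an unadjusted p under 0.05). Over both treatments of round 2, 81 genes passed with median-of-ratios factors, 39 with no count filter, 1 with DESeq2 and 6 with limma-trend; the cause was not tested. Leaving out a library or round leaves no residual degree of freedom and so a value with no test; MMP1 ranged between -0.149 without round 1, a reversal, and 2.46 without round 2. Depth limits genes with few reads, and replicate variation in the pair cannot be measured.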
